A study of Homo sapiens with 9 samples.

Results

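Interferon-stimulated genes (ISGs) were examined in CAL-1 cells with and without reduced KHSRP, an RNA-binding protein. CAL-1 is an established human line of BPDCN, a blood cancer of plasmacytoid dendritic cell type. The set held 42 known ISGs, chosen by symbol, and all 42 were among the 25540 gene symbols of the deposited table. The libraries fell into 3 groups of 3: KHSRPi#1 and KHSRPi#2, in which KHSRP was reduced by CRISPR interference, and NTC, the controls, whose genotype is labelled WT. What #1 and #2 stand for is not in the labels, which name no further treatment and give no culture or clone for a replicate. All libraries carry 1 shared batch label, so the spread behind each p-value is that of these libraries and can be technical.

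Type I interferons bind the receptor of IFNAR1 and IFNAR2, whose kinases JAK1 and TYK2 phosphorylate STAT2. With IRF9 it is part of the factor ISGF3, which binds interferon-stimulated response elements in ISG promoters. Many ISGs also keep a low level of transcription without added interferon, often called tonic. Plasmacytoid dendritic cells, the cell type that BPDCN resembles, are known for making large amounts of type I interferon after their Toll-like receptors TLR7 and TLR9 are engaged.

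Levels are in TPM, a transcript abundance scaled for transcript length, which allows genes to be compared with each other. TPM carries no read totals, so the depth is unknown. KHSRP itself was at 35.1, 35.1 and 35.1 TPM in the KHSRPi#1 libraries, 35.8, 33.7 and 36.5 in the KHSRPi#2 libraries and 253, 244 and 216 in the NTC libraries. All knockdown libraries lay below all controls, at 14.8% of the NTC mean. Of 13 markers of plasmacytoid dendritic cells, 10 passed the filter, an average of 1 TPM or more across all 9 libraries, with the transcription factor IRF8 between 2284 and 2824 TPM. IL3RA, a defining marker, was listed at 0 in every library, as were SLC25A6, ZBED1 and EIF4A1, genes that most cells use and that were looked up after their values were seen. A value of 0 is therefore given here as listed at 0, not as absence of the transcript. All 6 listed T and NK cell markers stayed at or under 0.0450 TPM and all 4 erythroid markers at or under 0.164 TPM. Among the other lists, PAX5 reached 3.73 TPM and LYZ 90.8 TPM.

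The 42 ISGs spanned a wide range of baseline levels. In the NTC libraries 2 had a mean of 100 TPM or more (BST2 and ADAR), 13 lay between 10 and 100, 7 between 1 and 10, 9 between 0.1 and 1, and 11 under 0.1 TPM. In this order the classes held 4.76%, 31.0%, 16.7%, 21.4% and 26.2% of the members. They held 6.00%, 23.4%, 13.3%, 7.48% and 49.9% of all symbols, of which 35.4% were listed at 0 in all libraries. In each library 21 to 24 members exceeded 1 TPM and 34 to 37 were above 0; 31 were above 0 in all 9. Their summed level was 784 to 836 TPM in the 6 knockdown libraries and 784 to 807 TPM in the 3 NTC libraries, ranges that overlap, and BST2 with ADAR made up 49.95% to 51.9% of each sum. In total 23 members passed the filter and were tested, while 19 did not. The highest value of any untested member in any library was 1.22 TPM.

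**Figure D1:**
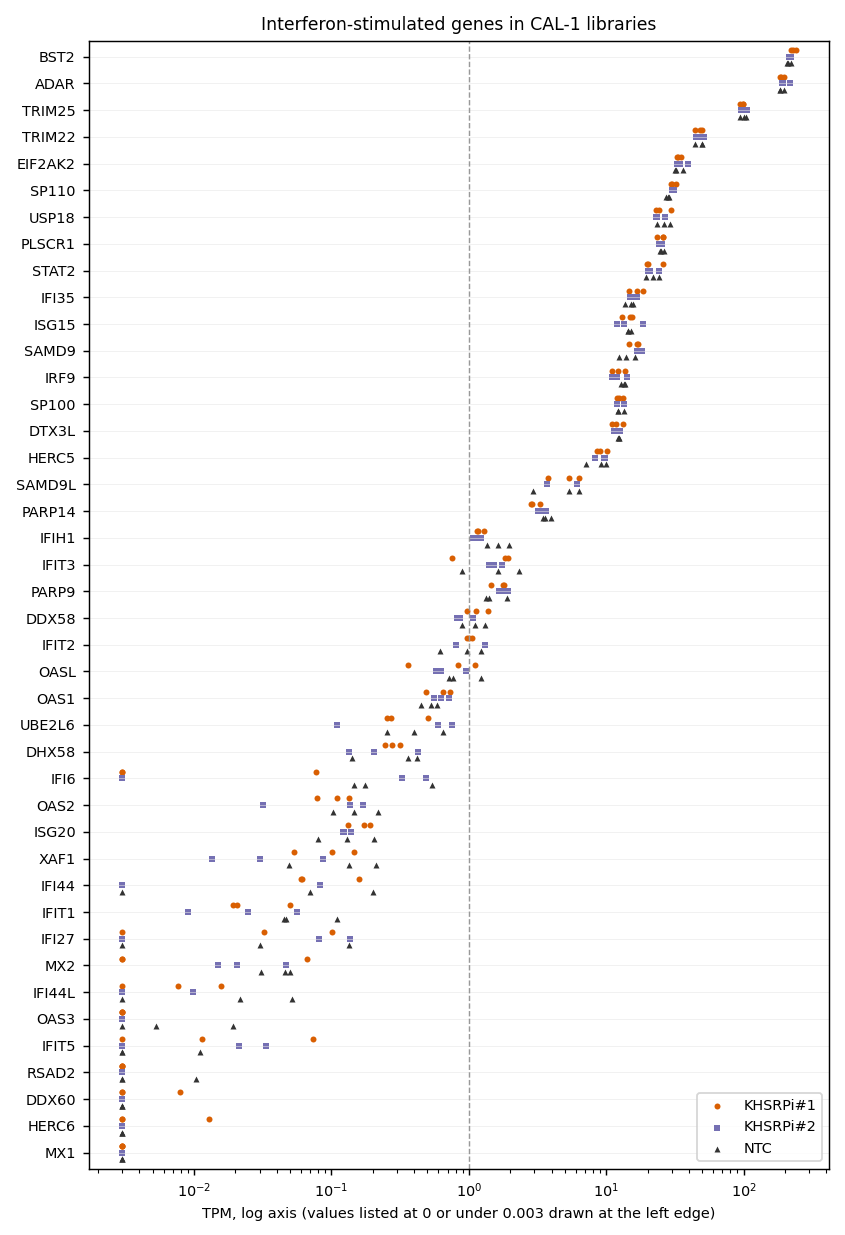
TPM of the 42 interferon-stimulated genes in each library on a log axis, ordered by NTC mean. Each point is 1 library, KHSRPi#1 as circles, KHSRPi#2 as squares and NTC as triangles, and the dashed line marks 1 TPM. The order runs from BST2 and ADAR, at 100 TPM or more, down to MX1, listed at 0 in all 9 libraries.

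The signal transducers that carry the type I response were expressed. STAT2 was at 19.8, 20.3 and 25.8 TPM in the KHSRPi#1 libraries, 20.2, 20.8 and 24.0 in the KHSRPi#2 libraries and 19.5, 21.98 and 24.2 in the NTC libraries. IRF9, the DNA-binding partner of STAT2, was at 12.2, 11.1 and 13.6 TPM in the KHSRPi#1 libraries, 11.04, 14.1 and 12.1 in the KHSRPi#2 libraries and 13.5, 13.7 and 12.8 in the NTC libraries. The knockdown and NTC ranges overlapped for both. In the GENCODE 29 annotation 48.4% of the exon bases of IRF9 are shared with another gene. The use of strand in counting is not stated, so reads in the shared part cannot be assigned to either gene here.

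The cytosolic RNA sensors were low. IFIH1 (MDA5), a helicase that detects long double-stranded RNA, was at 1.151, 1.17 and 1.28 TPM in the KHSRPi#1 libraries, 1.12, 1.22 and 1.06 in the KHSRPi#2 libraries and 1.64, 1.95 and 1.36 in the NTC libraries. DDX58 (RIG-I), which detects RNA ends with a triphosphate, was at 0.966, 1.13 and 1.38 TPM in the KHSRPi#1 libraries, 1.08, 0.864 and 0.814 in the KHSRPi#2 libraries and 0.887, 1.11 and 1.31 in the NTC libraries. For IFIH1 every knockdown library lay below every NTC library; the DDX58 ranges overlapped. DHX58 (LGP2), a regulator of both, ran from 0.134 to 0.426 TPM in the knockdown libraries and from 0.142 to 0.420 TPM in the NTC libraries. DDX60, a helicase linked to the RIG-I pathway, was at 0.00794, 0 and 0 TPM in the KHSRPi#1 libraries, 0 in all 3 KHSRPi#2 libraries and 0 in all 3 NTC libraries. A single KHSRPi#1 library held all of its signal.

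The IFIT genes encode proteins that bind foreign RNA 5' ends or assist in doing so, and lie in 1 cluster on chromosome 10. IFIT3 was at 1.82, 1.94 and 0.757 TPM in the KHSRPi#1 libraries, 1.75, 1.51 and 1.40 in the KHSRPi#2 libraries and 1.63, 2.32 and 0.890 in the NTC libraries. IFIT2 was at 1.06, 1.00 and 0.963 TPM in the KHSRPi#1 libraries, 1.30, 1.32 and 0.807 in the KHSRPi#2 libraries and 0.970, 1.22 and 0.614 in the NTC libraries. Within each group the lowest of the 3 values of both genes was in replicate 3, and the ranges of the knockdown and NTC libraries overlapped. IFIT5, the last gene of the cluster, was at 0.0736, 0 and 0.0114 TPM in the KHSRPi#1 libraries, 0.0213, 0.0333 and 0 in the KHSRPi#2 libraries and 0, 0.0110 and 0 in the NTC libraries. IFIT1, usually one of the most strongly induced ISGs, ran from 0.00897 to 0.0561 TPM in the knockdown libraries and from 0.0451 to 0.110 TPM in the NTC libraries.

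The OAS enzymes make the 2'-5' oligoadenylates that activate RNase L, while OASL lacks that activity and assists RIG-I. OASL was at 0.358, 1.10 and 0.836 TPM in the KHSRPi#1 libraries, 0.577, 0.624 and 0.951 in the KHSRPi#2 libraries and 0.714, 1.22 and 0.762 in the NTC libraries. OAS3 was at 0 in all 3 KHSRPi#1 libraries, 0 in all 3 KHSRPi#2 libraries and 0.0192, 0 and 0.00525 TPM in the NTC libraries. OASL was the only member of this family to exceed 1 TPM in any library, and OAS3 was listed at 0 in all knockdown libraries and in 1 NTC library. OAS1 ran from 0.487 to 0.731 TPM in knockdown and from 0.446 to 0.590 TPM in NTC libraries, and OAS2 from 0.0318 to 0.169 TPM in knockdown and from 0.102 to 0.218 TPM in NTC libraries. The MX genes encode dynamin-like GTPases that block early steps of virus replication. MX2 was at 0, 0.0660 and 0 TPM in the KHSRPi#1 libraries, 0.0149, 0.0466 and 0.0206 in the KHSRPi#2 libraries and 0.0457, 0.0309 and 0.04997 in the NTC libraries. MX1, a standard readout of type I interferon, was listed at 0 in all 9 libraries.

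ISG15, a ubiquitin-like modifier, is attached to proteins by the conjugating enzyme UBE2L6 and the ligases HERC5 and TRIM25 and removed by the protease USP18. The modifier ran from 11.9 to 18.6 TPM in the knockdown libraries and from 14.4 to 15.1 TPM in the NTC libraries. TRIM25, which also ubiquitinates RIG-I, was at 94.1, 99.3 and 98.6 TPM in the KHSRPi#1 libraries, 106, 95.4 and 96.2 in the KHSRPi#2 libraries and 101, 104 and 94.5 in the NTC libraries. USP18, which in addition restrains the interferon receptor, was at 24.3, 22.9996 and 29.5 TPM in the KHSRPi#1 libraries, 22.9, 23.5 and 26.7 in the KHSRPi#2 libraries and 26.2, 23.5 and 29.3 in the NTC libraries. These 3 genes overlapped between knockdown and NTC libraries. HERC5 ran from 8.29 to 10.2 TPM in knockdown and from 7.16 to 9.88 TPM in NTC libraries. The conjugating enzyme was far lower, with UBE2L6 between 0.110 and 0.758 TPM in knockdown and between 0.252 and 0.643 TPM in NTC libraries. HERC6, the paralogue of HERC5, was at 0.0128, 0 and 0 TPM in the KHSRPi#1 libraries, 0 in all 3 KHSRPi#2 libraries and 0 in all 3 NTC libraries. HERC6 and HERC5 lie 14.0 kb apart on chromosome 4.

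DTX3L and PARP9 form a ubiquitin ligase and ADP-ribosylation complex, and PARP14 is a related ADP-ribosyltransferase. DTX3L was at 11.1, 11.7 and 13.2 TPM in the KHSRPi#1 libraries, 12.3, 11.3 and 12.5 in the KHSRPi#2 libraries and 12.4, 12.5 and 12.2 in the NTC libraries. PARP9 was at 1.45, 1.80 and 1.76 TPM in the KHSRPi#1 libraries, 1.78, 1.93 and 1.65 in the KHSRPi#2 libraries and 1.40, 1.90 and 1.34 in the NTC libraries. PARP14 was at 2.86, 2.83 and 3.31 TPM in the KHSRPi#1 libraries, 3.28, 3.21 and 3.62 in the KHSRPi#2 libraries and 3.48, 3.98 and 3.57 in the NTC libraries. PARP14 had 1 knockdown library above the lowest NTC library, so the ranges overlapped, as they did for the other 2 genes. PARP9 and DTX3L lie head to head and share 217 exon bases, 2.43% of those of PARP9.

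The double-stranded RNA editor and the double-stranded RNA kinase were among the higher members. ADAR, which converts adenosine to inosine in double-stranded RNA, was at 184, 196 and 188 TPM in the KHSRPi#1 libraries, 216, 189 and 193 in the KHSRPi#2 libraries and 185, 195 and 183 in the NTC libraries. EIF2AK2 (PKR), which phosphorylates the translation factor eIF2α when it binds double-stranded RNA, was at 33.4, 34.9 and 32.9 TPM in the KHSRPi#1 libraries, 39.3, 32.9 and 34.4 in the KHSRPi#2 libraries and 32.3, 36.0 and 31.8 in the NTC libraries. Both overlapped between groups. SAMD9 and SAMD9L, neighbouring genes for antiviral and growth-restricting proteins, differed from each other in level. SAMD9 was at 14.7, 16.7 and 17.0 TPM in the KHSRPi#1 libraries, 18.2, 16.8 and 16.9 in the KHSRPi#2 libraries and 12.4, 16.2 and 14.0 in the NTC libraries. SAMD9L was at 5.32, 6.35 and 3.77 TPM in the KHSRPi#1 libraries, 6.09, 6.09 and 3.69 in the KHSRPi#2 libraries and 5.34, 6.37 and 2.91 in the NTC libraries. For SAMD9 only 1 NTC library exceeded the lowest knockdown library, and for SAMD9L the lowest library of each group was replicate 3.

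TRIM22 was grouped here with the nuclear body proteins SP110 and SP100 and was the most abundant of this group. TRIM22 was at 49.8, 48.5 and 44.1 TPM in the KHSRPi#1 libraries, 51.7, 47.1 and 45.3 in the KHSRPi#2 libraries and 49.9, 49.98 and 44.0 in the NTC libraries. SP110, a chromatin-associated relative of SP100, was at 29.5, 30.1 and 32.2 TPM in the KHSRPi#1 libraries, 31.4, 30.0 and 31.1 in the KHSRPi#2 libraries and 28.3, 27.1 and 28.9 in the NTC libraries. SP100, a core component of PML nuclear bodies, was at 12.4, 13.3 and 12.0 TPM in the KHSRPi#1 libraries, 13.4, 12.0 and 12.1 in the KHSRPi#2 libraries and 12.2, 13.6 and 12.2 in the NTC libraries. SP110 was higher in every knockdown library than in every NTC library, by a small margin, while TRIM22 and SP100 overlapped. In GENCODE 29, 20.9% of the exon bases of SP110 are shared with other genes.

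Among the remaining antiviral effectors, BST2 (tetherin), which holds budding virus at the cell surface and is a known surface marker of plasmacytoid dendritic cells, was at 222, 229 and 239 TPM in the KHSRPi#1 libraries, 213, 221 and 219.9 in the KHSRPi#2 libraries and 211, 208 and 223 in the NTC libraries. This level exceeded that of 97.4% of all symbols in the NTC libraries. RSAD2 (viperin), which makes a chain-terminating nucleotide, was at 0 in all 3 KHSRPi#1 libraries, 0 in all 3 KHSRPi#2 libraries and 0, 0 and 0.0104 TPM in the NTC libraries. PLSCR1, a phospholipid scramblase with antiviral activity, ran from 23.4 to 25.9 TPM in knockdown and from 24.4 to 26.3 TPM in NTC libraries. The exonuclease ISG20 did not exceed 0.204 TPM in any library, nor the apoptosis-linked XAF1 0.211 TPM. Of the genes named IFI, IFI35, a partner of NMI, was at 14.6, 16.7 and 18.4 TPM in the KHSRPi#1 libraries, 16.7, 14.8 and 16.4 in the KHSRPi#2 libraries and 15.1, 13.8 and 15.7 in the NTC libraries. IFI44L, of little known function, was at 0, 0.0157 and 0.00765 TPM in the KHSRPi#1 libraries, 0, 0 and 0.00982 in the KHSRPi#2 libraries and 0.0218, 0.0516 and 0 in the NTC libraries. IFI6, IFI27 and IFI44, standard members of interferon signatures in blood, peaked at 0.536, 0.137 and 0.201 TPM over the 9 libraries, and each was listed at 0 in 3 of them.

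Neighbouring ranks in this order were often not separable. Of the 22 neighbouring pairs of tested members in the order of NTC means, 11 had NTC ranges that did not overlap. BST2 and ADAR did not overlap in NTC, nor did ADAR and TRIM25. The members lie on 15 chromosomes, and 20 are within 200 kb of another member. Some neighbours in the genome had NTC ranges apart, and others, such as IFIT2 and IFIT3, overlapped. On chromosome 4, HERC5 averaged 8.72 ± 1.41 TPM in NTC (SD, n = 3), and HERC6 was listed at 0 there. On chromosome 7, SAMD9 averaged 14.2 ± 1.91 and SAMD9L 4.87 ± 1.78 TPM in NTC (SD, n = 3 each), at a distance of 12.0 kb.

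The promoters of the members were searched for the core of the interferon-stimulated response element, GAAANNGAA, on either strand, in the windows of 250 bases before to 50 after the start that RefSeq (GRCh38.p14) gives. Promoters were matched for 35 of the 42 members; DHX58, IFIT2, OAS2, OASL, MX2, USP18 and TRIM22 were not matched. The core was found for 22 of the 35 (62.9%), against 9.86% of all 27305 symbols with a promoter. Among tested members 11 of 20 held it, and among untested members 11 of 15. The gamma-activated site TTCNNNGAA, which reads the same on both strands, was found for 10 of 35 (28.6%), against 9.38% of symbols. Counted per start site, there were 50 core matches, of which 6 overlapped a match of that second motif. A site that lies in several windows is counted in each, as for IFI27, PLSCR1 and IFI44 and for DTX3L with PARP9. Both counts therefore exceed the number of distinct sites. These are matches of letters and show no binding.

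The stretches below were chosen after their matches were seen, to set members with high, middle and very low levels side by side; capitals mark core matches on either strand, and each is read 5' to 3' on the strand of its gene. The first 3 belong to members at 10 TPM or more in NTC, the next 3 to members between 1 and 10 TPM, and the last 4 to members under 1 TPM. In GENCODE 29 all 29 bases of the BST2 stretch and 18 of the 39 bases of the IFIH1 stretch lie in an exon of another gene. No base of the other stretches lies in an annotated exon.
BST2 (chr19:17405739-17405767, minus strand): tttctggGAAACTGAAACTGAAaacctaa
ISG15 (chr1:1013375-1013413, plus strand): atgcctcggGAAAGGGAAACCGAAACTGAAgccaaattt
SAMD9 (chr7:93118098-93118124, minus strand): ctgagaaatGAAACTGAAaccaaacct
HERC5 (chr4:88456986-88457018, plus strand): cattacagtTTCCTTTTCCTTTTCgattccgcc
IFIH1 (chr2:162318819-162318857, minus strand): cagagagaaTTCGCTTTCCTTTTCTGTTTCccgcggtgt
IFIT3 (chr10:89327833-89327893, plus strand): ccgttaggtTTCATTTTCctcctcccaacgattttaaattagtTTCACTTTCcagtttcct
IFI6 (chr1:27672268-27672316, minus strand): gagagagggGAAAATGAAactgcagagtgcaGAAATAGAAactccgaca
IFIT1 (chr10:89392499-89392538, plus strand): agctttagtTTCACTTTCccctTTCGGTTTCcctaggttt
IFI27 (chr14:94110620-94110658, plus strand): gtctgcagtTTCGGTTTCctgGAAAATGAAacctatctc
OAS3 (chr12:112938322-112938348, plus strand): gaaagaaacGAAACTGAAagcagggaa
BST2, the most abundant member, and ISG15 carry 2 and 3 overlapping or adjoining core matches. IFIH1, at 1 to 2 TPM, carries 3 in a row on the opposite strand, and IFIT1 and IFI27, below 0.2 TPM in every library, carry 2 each. Over all matched members, 2 or more core matches, added over the windows of all start sites, were present in 6 of the 20 tested and in 10 of the 15 untested ones. A site that lies in several overlapping windows is counted in each. PLSCR1, a tested member, and IFI44, an untested member, reached 2 only in this way. ADAR and TRIM25, the next most abundant after BST2, held no match in the window.

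**Figure D2:**
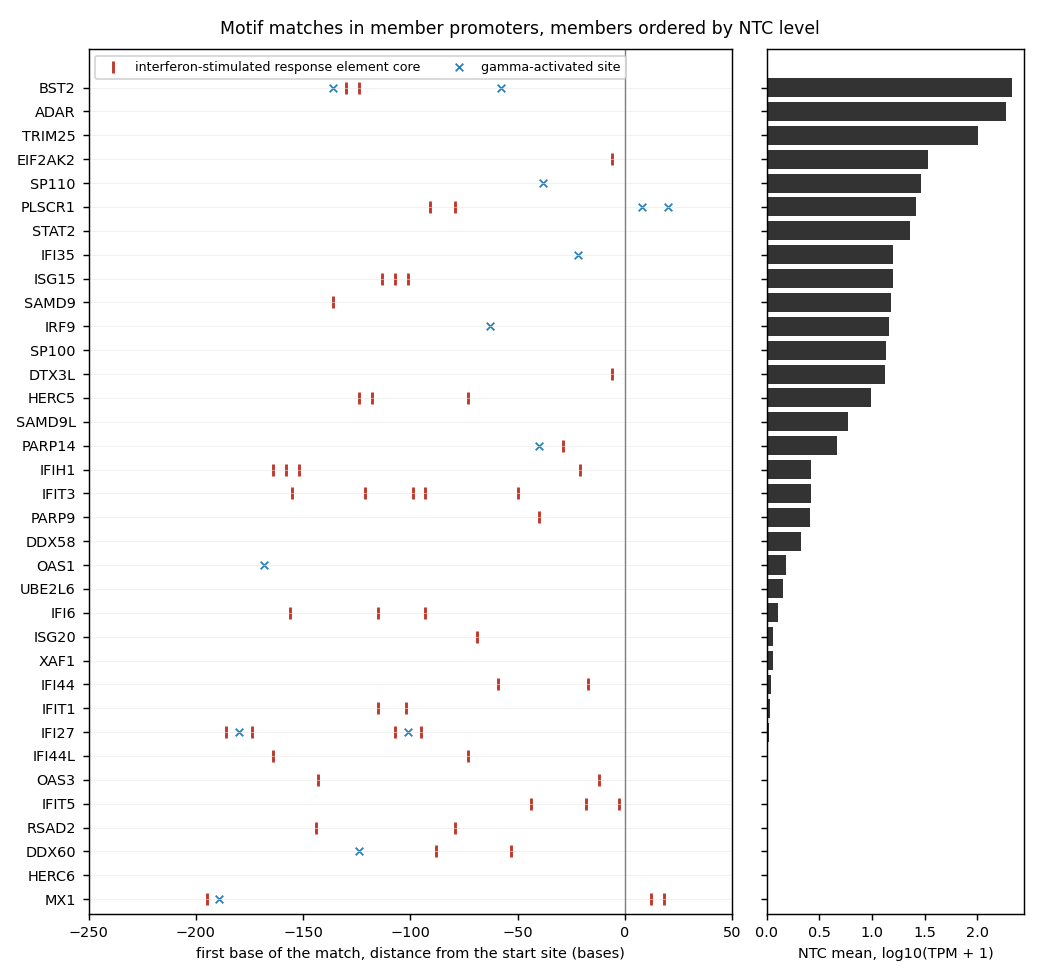
Left, first base of each match of the interferon-stimulated response element core (bars) and of the gamma-activated site (crosses) relative to the start site, in bases, for the 35 members with a RefSeq promoter (all promoters of a member on 1 line). Right, NTC mean as log10(TPM + 1); 22 of the 35 members hold the core, among them 11 of 15 that were too low to test.

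The genes that signal to ISGs were described from lists chosen in the same way as the members. None of 21 interferon genes passed the filter, and 18 were listed at 0 in all libraries. The others had signal in 1 library each: IFNL2 at 0.103 TPM in a KHSRPi#1 library, IFNL1 at 0.141 TPM in a KHSRPi#2 library, and IFNB1 at 0.107 TPM in an NTC library. The receptors and kinases were all expressed. IFNAR1 ran from 19.4 to 22.8 TPM in knockdown and from 18.5 to 21.3 TPM in NTC libraries, and IFNAR2 from 27.6 to 32.7 TPM in knockdown and from 26.3 to 29.5 TPM in NTC libraries. Both receptor chains were thus well above the filter. The most abundant of the 9, IFNGR1, a chain of the interferon-gamma receptor, averaged 83.4 ± 1.65 TPM in knockdown (SD, n = 6) and 82.0 ± 5.82 TPM in NTC libraries (SD, n = 3). Toll-like receptor TLR7 ran from 31.1 to 42.4 TPM in knockdown and from 27.0 to 34.2 TPM in NTC libraries. The knockdown and NTC ranges overlapped for all 3 of IFNAR1, IFNAR2 and TLR7. SOCS1 and SOCS3, feedback inhibitors that cytokines induce, peaked at 0.446 and 0.776 TPM over the 9 libraries. PTPN6, a phosphatase and the most abundant listed inhibitor, averaged 195 ± 28.0 TPM in knockdown (SD, n = 6) and 207 ± 35.6 TPM in NTC libraries (SD, n = 3). Of 13 targets typical of interferon gamma, 2 passed the filter. WARS, a tRNA synthetase, ran from 147 to 168 TPM in knockdown and from 143 to 164 TPM in NTC libraries. CIITA, the master activator of MHC class II genes, averaged 16.6 ± 1.31 TPM in knockdown (SD, n = 6) and 15.7 ± 2.86 TPM in NTC libraries (SD, n = 3). CXCL9, CXCL10, GBP1, GBP4 and SECTM1 were listed at 0 throughout.

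**Figure D3:**
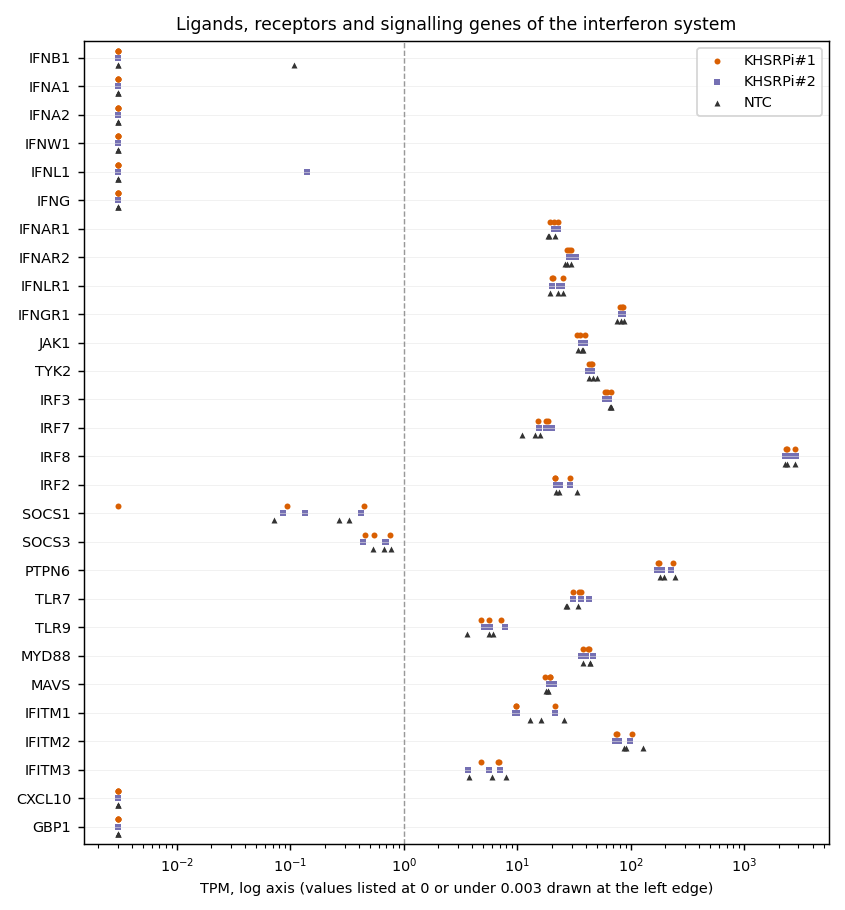
TPM of ligands, receptors, kinases, transcription factors, inhibitors, sensors and selected further targets in each library on a log axis, with KHSRPi#1 as circles, KHSRPi#2 as squares and NTC as triangles. The interferon genes sit at or near the left edge, where values listed at 0 are drawn, while the receptor chains IFNAR1 and IFNAR2 lie between 18.5 and 32.7 TPM.

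Whether the knockdown changed these genes was tested with limma on log2(TPM + 1), so fold changes are on that scale and understate changes of low genes; p-values were adjusted over all 10939 tested genes by the Benjamini-Hochberg method. Averaged over both knockdown groups, 0 of the 23 tested members were called at an adjusted p under 0.05, where 0.0823% of all genes were. At an unadjusted p under 0.05 limma gave 3 of 23 (SP110, SAMD9 and IFIH1), or 13.0%, against 7.93% of all genes. KHSRPi#1 against NTC and KHSRPi#2 against NTC each called 0 members, with 0.0548% of all genes called in each; both comparisons share the NTC libraries. KHSRPi#2 against KHSRPi#1 called 0 members and 0 genes (0%), and 0 members had an unadjusted p under 0.05 there, against 1.05% of all genes. The median log2 fold change of the 23 was -0.01, with 10 above 0 and 13 below, beside a median of 0.02 over all tested genes. The smallest limma adjusted p among the members was 0.528, for IFIH1. In bulk RNA a change in the share of expressing cells and a change in RNA per cell cannot be told apart.

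The intervals limit how large a change on the log2(TPM + 1) scale could have been missed. That scale understates changes of low members, so the bounds below do not limit the fold change of their TPM. For 21 of the 23 members the 95% interval of the log2 fold change lay within ±0.5, as it did for 93.4% of all tested genes, and all 23 lay within ±1. The lowest bound was -0.50 for IFIH1 and the highest 0.59 for SAMD9L. The 19 untested members were too low for such a statement. In a fit without the filter, which held all of them except MX1, their smallest limma adjusted p was 0.719. MX1 was listed at 0 throughout and could not be fitted.

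**Figure D4:**
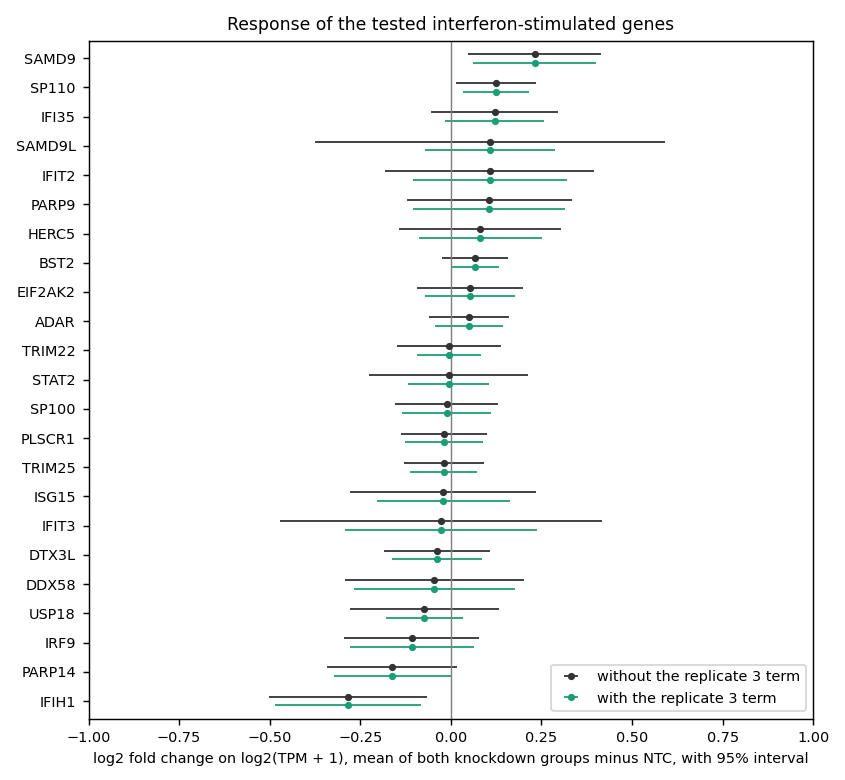
Log2 fold change of the 23 tested members, mean of both knockdown groups minus NTC, with 95% intervals from limma, without (dark) and with (green) a term for the replicate 3 libraries. The estimates run from -0.28 for IFIH1 to 0.23 for SAMD9, and 0 members passed the adjusted threshold in either fit.

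The largest differences of members were small on the log2(TPM + 1) scale, which understates that of IFIH1. IFIH1 averaged 1.17 ± 0.0767 TPM in knockdown (SD, n = 6) and 1.65 ± 0.293 TPM in NTC libraries (SD, n = 3). In TPM its knockdown mean was 70.9% of the NTC mean. Its log2 fold change was -0.28 (SE 0.10, limma adjusted p = 0.528), with -0.26 for KHSRPi#1 and -0.31 for KHSRPi#2. SP110 averaged 30.7 ± 1.02 TPM in knockdown (SD, n = 6) and 28.1 ± 0.901 TPM in NTC libraries (SD, n = 3), a log2 fold change of 0.12 (SE 0.05, limma adjusted p = 0.576). These were the 2 tested members whose 6 knockdown libraries lay beyond all 3 NTC libraries, 8.70% of 23 against 4.67% of all tested genes. SAMD9 averaged 16.7 ± 1.14 TPM in knockdown (SD, n = 6) and 14.2 ± 1.91 TPM in NTC libraries (SD, n = 3), a log2 fold change of 0.23 (SE 0.08, limma adjusted p = 0.535). Its exact two-sided permutation p over the 84 divisions of the libraries was 0.0238, not adjusted for the 42 members so tested, where the smallest that design allows is 0.0119. IFIH1 and SP110 were each at that smallest value in the same test. With 1 library left out, the log2 fold change of SAMD9 ran from 0.14 without NTC replicate 1 to 0.32 without NTC replicate 2. PARP14 and IRF9 followed among those below 0, at -0.16 and -0.11, and IFI35, SAMD9L and IFIT2 among those above, at 0.12, 0.11 and 0.11. IFI35 was at 0.07 without NTC replicate 2. None of these passed. The gene IFIH1 lies at chr2:162267079-162318703, SP110 at chr2:230167293-230225729 and SAMD9 at chr7:93099513-93118023, all on the minus strand of GRCh38 (GENCODE 29).

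The replicate 3 library of each group stood apart from the other 2, so the same fit was repeated with a term for these libraries. With the term 1.76% of all genes were called on average over both knockdown groups, and again 0 of the 23 members, the smallest limma adjusted p being 0.146 for IFIH1. The limma unadjusted p was under 0.05 for 5 members, now with BST2 and PARP14, or 21.7%, against 17.5% of all genes. KHSRPi#1 and KHSRPi#2 taken singly called 0 members each, beside 0.676% and 0.804% of all genes. Without NTC replicate 2 this fit called 1 member, SAMD9, with a log2 fold change of 0.34 (limma adjusted p = 0.0409). The other 8 fits that left out 1 library called 0 members, and there the adjusted p of SAMD9 was up to 0.510.

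Between the replicate 3 libraries and the rest, 5 of the 23 members were called (21.7%), against 30.3% of all genes, so the members' share was not above the background. SAMD9L was lower in replicate 3, at 64.6% of the mean of replicates 1 and 2 in KHSRPi#1, 60.6% in KHSRPi#2 and 49.7% in NTC (log2 difference -0.64, SE 0.08, limma adjusted p = 0.000245). IFIT3 was lower as well, at 40.3%, 86.1% and 45.1% in the same order of groups (-0.49, limma adjusted p = 0.00955). TRIM22 was slightly lower, at 89.8%, 91.8% and 88.1% (-0.15, limma adjusted p = 0.0163). STAT2 and USP18 were higher, by 0.26 and 0.24 on the log2 scale (limma adjusted p = 0.00279 and 0.00319), in all 3 groups. IFIT3 did not pass without KHSRPi#1 replicate 3 or NTC replicate 3 (adjusted p up to 0.0873), nor TRIM22 without any 1 of the 3 replicate 3 libraries (up to 0.114). What distinguishes the replicate 3 libraries is not given in the labels and was not tested. Cell type markers differed as well. Of 10 tested markers of plasmacytoid dendritic cells, 7 were lower in the replicate 3 libraries (IRF7, TLR7, TLR9, CLEC4C, NRP1, SPIB and GZMB) and 1 was higher (IRF8), with a median log2 difference of -0.33. The summed level of all 13 listed markers ran from 4003 to 4168 TPM in the replicate 3 libraries and from 3515 to 4045 TPM in the others. IRF8 alone made up most of this sum in every library, so the sum says little of the other markers. LYZ, the 1 tested of 6 monocyte and macrophage markers, was lower in replicate 3, at 36.6 to 41.6 TPM against 59.1 to 90.8 TPM in the others (log2 difference -0.92, limma adjusted p = 3.01e-05). Of 2 tested B cell markers 1 was higher, CD79A, by 0.42 on the log2 scale (limma adjusted p = 0.0315), and no T and NK cell or erythroid marker passed the filter. The part of these markers in the members' differences was not tested.

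**Figure D5:**
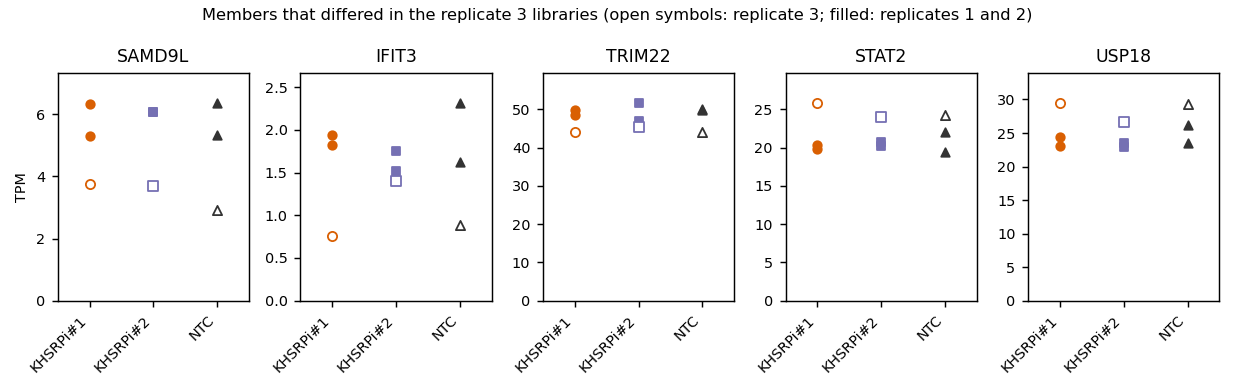
TPM of the 5 members that differed between the replicate 3 libraries (open symbols) and replicates 1 and 2 (filled), by group, each panel from 0. SAMD9L, IFIT3 and TRIM22 have the open symbol lowest in each group, and STAT2 and USP18 have it highest.

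Outside the members, the pathway lists gave 0 calls without the term. With it, 0 of 9 receptors and kinases, 0 of 7 tested inhibitors, 0 of 10 sensing adaptors and 0 of 2 tested gamma-type targets were called. Among 8 tested transcription factors IRF7, the main driver of interferon-alpha genes in plasmacytoid dendritic cells, was higher (log2 fold change 0.35, limma adjusted p = 0.0120), and it did not pass without NTC replicate 3 (0.131). Of 25 tested further ISGs, 4 were lower and 0 higher, where 0.485% of all genes were lower. The membrane proteins IFITM1 and IFITM2, which block virus fusion, were 2 of these, at -0.43 and -0.28 (limma adjusted p = 0.0128 and 0.00473), and IFITM2 did not pass without NTC replicate 3 (0.0611). TRIM21, a cytosolic antibody receptor, and OGFR, the opioid growth factor receptor, were the others, at -0.27 and -0.18 (limma adjusted p = 0.0414 for each), and each passed in 1 of the 9 fits that left out 1 library. Of 10 tested markers of plasmacytoid dendritic cells, a list that also holds IRF7, 4 were higher and 0 lower in this fit, against 1.76% of all genes called in either direction, and 0 were called without the term. GZMB, a granule protease, was higher by 0.99 on the log2 scale (limma adjusted p = 8.56e-08) and was called whichever library was left out. CLEC4C, a surface lectin of these cells, and TCL1A were higher by 0.36 and 0.17 (limma adjusted p = 0.00497 and 0.0275), and without NTC replicate 3 neither passed (0.0611 and 0.0854); TCL1A passed in 3 of those 9 fits. The summed level of the 13 markers, most of it IRF8, ran from 3664 to 4168 TPM in knockdown and from 3515 to 4003 TPM in NTC libraries, with IL3RA at 0. None of the 2 tested B cell markers and not LYZ was called. The part of these markers in the differences of IRF7 and the further ISGs was not tested.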

How the data were processed

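The authors deposited 1 table of gene-level TPM, a unit that corrects for transcript length and gives every library the same sum, for 9 CAL-1 RNA-seq libraries. Total RNA was taken with the NucleoSpin RNA Plus XS kit and libraries were made with Roche Kapa reagents, per the labels' protocols. Per the submitters' processing notes, the genome build was hg38. The aligner, counter, annotation and use of strand are not stated in the material at hand. Columns were matched to samples by the column names in the sample descriptions, and titles gave group and replicate number.

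The 42 members, the pathway lists and the tests were chosen with earlier results of these data known, so none is independent of them. Lists were matched by symbol, older symbols included; C19orf66 and TRAC were not found. Genes with a mean of at least 1 TPM (10939) were fitted as log2(TPM + 1) with limma 3.58.1 in R 4.3.3, using eBayes with an intensity trend and two-sided tests. All 3 groups entered 1 fit without covariates, and a second fit added a term for the replicate 3 libraries. Benjamini-Hochberg adjustment ran over all genes tested, and genes under 0.05 were called. Members named with every library's value were the highest and lowest of each role group, those with the 5 largest fold changes per direction, those whose groups did not overlap, and those called in any fit; the others are given by range. Single values were tested in R by exact permutation over all 84 divisions into 6 and 3 libraries. The fit was tested on simulated data. Promoter windows came from RefSeq GRCh38.p14 and positions from GENCODE 29. TPM holds no read totals, so precision rests on the 3 replicates a group. Pseudocounts, filters, rescalings, a replicate block and left-out libraries were tried as alternatives. One gene of the pathway lists is not reported here.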

Additional observations from a re-analysis of the deposited data

How the results depend on the processing

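The count of 0 called members held for each of the 3 knockdown comparisons and between the knockdown groups under pseudocounts of 0.1 and 5, no filter, a filter of 5 TPM, median-ratio rescaling, quantile normalization, replicates 1 and 2 alone, and any 1 library left out. The exception was the fit with the replicate 3 term and without NTC replicate 2, which called 1 member, SAMD9, on average and 1, again SAMD9, for KHSRPi#2 against NTC. Replicate numbers were not taken to pair the samples, since deviations from group means correlated over 0.1 in 8 but not all of the 9 same-numbered pairs and only 4 of 9 libraries correlated best with their own number. With a replicate block 0 members were called in all 4 comparisons, while all genes called on average over the knockdown groups numbered 152 with the block, 192 with the replicate 3 term, 14 in replicates 1 and 2 alone and 9 in the fit reported. With 1 library left out that total was 3 to 7 without the term and 34 to 202 with it. Signs were followed only for the members with the 5 largest log2 fold changes in each direction. Of these, 4 turned sign under these settings, none called for the knockdown: DDX58, USP18, SAMD9L and IFIT2. The other tested members, closer to no change, were not followed. DDX58 was at 0.0092 in replicates 1 and 2 alone, 0.0092 with the term and without NTC replicate 3, and 0.010 with the term and without KHSRPi#2 replicate 3; the cause was not tested. With 1 library left out and no term, DDX58 ran from -0.12 to 0.026, USP18 from -0.15 to 0.0043, SAMD9L from -0.16 to 0.30 and IFIT2 from -0.017 to 0.21. Of 336 recomputed single-gene values, 7 turned, 1 gained and 5 lost a call, and 323 kept direction and side. The replicate 3 difference called 4 to 7 members over its alternatives, beside 5 of 23 (21.7%) and 30.3% of all genes in the fit reported. The shares of all genes in those alternatives are not given here, so their counts cannot be set against the background. The share of members with the response element core was 62.9% with a further A required, against 4.38% of all symbols. In the bases before the start alone it was 57.1%, against 8.41% of all symbols. The 19 members under the filter were too low for the intervals given above.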
